A study of Mus musculus with 18 samples.

Results

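The DN3 fraction of a mouse model of anaplastic large cell lymphoma was compared with healthy LSK cells by RNA microarray. DN3 names the third double-negative stage of T cell development, CD4- CD8- CD44- CD25+ by the usual surface definition, and LSK cells are the lineage-negative, SCA1-positive, KIT-positive stem and progenitor cells of the bone marrow. The arrays were chosen by their titles, 3 DN3 lymphoma arrays and 3 healthy LSK arrays, hence 6 of the 18 arrays in the series. The DN1, DN2 and DN4 fractions of the same model, 3 arrays each, served as further comparisons. A lymphoma fraction titled CLP, also 3 arrays, was not compared but entered the estimate of spread among the fractions. DN3 cells came from thymic lymphomas of moribund animals that carried an Lck-Cre transgene. These hosts had been irradiated at a sublethal dose and given bone marrow cells infected with a retrovirus, so that NPM-ALK, the fusion kinase of this lymphoma, was to be made in early T cells. The DN1, DN2 and DN4 cells have the same genotype and treatment, and the series text names 3 lymphomas as the source of all fractions. LSK cells came from bone marrow of healthy wild-type mice aged 18 months, with no transplant stated. Mouse strain and sex were not given in the sources used here.

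The comparison with LSK therefore joins several differences that cannot be told apart, namely transformation, cell stage, tissue, the Cre transgene, irradiation, transplantation and age. Host cells that outlive a sublethal dose carry no retrovirus, and the labels do not say that they were kept apart in the sort. The short description attached to each DN3 array speaks of an aged wild-type mouse given 4 Gy, and that of the LSK arrays of an aged NIPA knockout, which conflicts with the genotype entries. For LSK array 3 it adds a dose of 4 Gy, which those of LSK arrays 1 and 2 do not. Descriptions of the DN1 and DN2 arrays also give 4 Gy, whereas those of the DN4 arrays give no dose. The titles and genotype entries were followed, and without LSK array 3 the comparison with LSK called 4860 genes in place of 5443. Without LSK array 1 or 2 it called 4615 or 4619, so the drop is not particular to array 3. Replicates carry the numbers 1 to 3, and nothing states that arrays of 1 number come from 1 animal, so p-values measure the spread between these arrays, which may be technical. The labels give no scan or extraction batch.

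Thymocytes at the DN3 stage have committed to the T lineage and rearrange the T cell receptor beta chain. A successful beta chain pairs with the invariant pre-TCR alpha chain, encoded by Ptcra, and with the CD3 chains, and signals from this pre-TCR let the cell pass beta-selection towards DN4. Notch1, a receptor cleaved after it binds a ligand on the thymic epithelium, drives this stage: its freed intracellular domain joins the DNA-binding protein RBPJ and switches on target genes such as Dtx1, Nrarp, Hes1, Notch3 and Ptcra. Notch signalling is normally turned down after beta-selection.

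Values are log2 RMA signals of 22180 genes, each read by its brightest single-symbol probe set, and a gene was called where limma gave an adjusted p under 0.05 over all genes. Signals do not rank 1 gene against another, since probe sets differ in brightness. Signals up to 5.36 to 5.68, the 95th percentile of 1105 olfactory receptor genes on these 6 arrays, were taken as background. Arrays of DN3 correlated with each other at r of 0.987 to 0.992, those of LSK at 0.987 to 0.991, and DN3 with LSK at 0.916 to 0.927. LSK arrays were mixed in sex-linked RNA. Xist was at 3.90 to 4.08 in DN3 and at 3.55, 10.74 and 10.00 on the LSK arrays, and the Y-linked gene Eif2s3y was at 8.87 to 9.06 in DN3 and at 8.42, 7.43 and 4.69 in LSK. Without genes on X and Y, 5288 genes were called between DN3 and LSK in place of 5443.

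Genes of the sort markers checked the label and are not results. Il2ra, which codes for CD25, was at 12.14, 11.87 and 12.05 in DN3, against 8.92, 8.88 and 9.32 in DN1. DN4 arrays had Il2ra at 8.66, 8.61 and 8.85, and LSK arrays at 10.15, 9.36 and 9.33. Cd44 was below background on the DN3 arrays (4.64, 4.58 and 4.79), against 6.66, 6.38 and 6.88 in DN1. Kit was at 8.06, 8.22 and 7.90 in DN3, against 10.65, 10.79 and 10.59 in DN2. High Il2ra with low Cd44 and Kit is the RNA pattern of the DN3 surface definition. Cd8a was near background in DN3 (5.71, 5.17 and 5.46) and Cd4 slightly above it (6.03, 5.95 and 5.81), whereas Cd8b1 was at 8.70, 8.47 and 9.02, against 5.19, 4.85 and 5.63 in LSK. All 9 measured T cell markers were called higher in DN3 and all 10 measured LSK markers were called lower, where 24.5% of all genes were called (11.4% higher and 13.1% lower).

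Against LSK, 2539 genes were higher in DN3 and 2904 lower by limma, and 2155 of these 5443 differed at least 2-fold. The counts were smaller within the lymphoma. DN3 minus DN1 gave 870 higher (3.92% of all genes) and 615 lower (2.77%), DN3 minus DN2 gave 289 higher (1.3%) and 255 lower (1.15%; 522 and 465 with the replicate number as a block and only these fractions in the fit), and DN3 minus DN4 gave 1 gene (4 with that block and fit). With only the DN3 and DN2 arrays in the fit and no block, 428 genes were higher and 376 lower. Arrays of DN3 and LSK did not overlap in 39.0% of all genes. These samples are bulk RNA of sorted cells, so fewer cells of a kind and less RNA in each cell cannot be told apart in any of these comparisons.

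**Figure D1:**
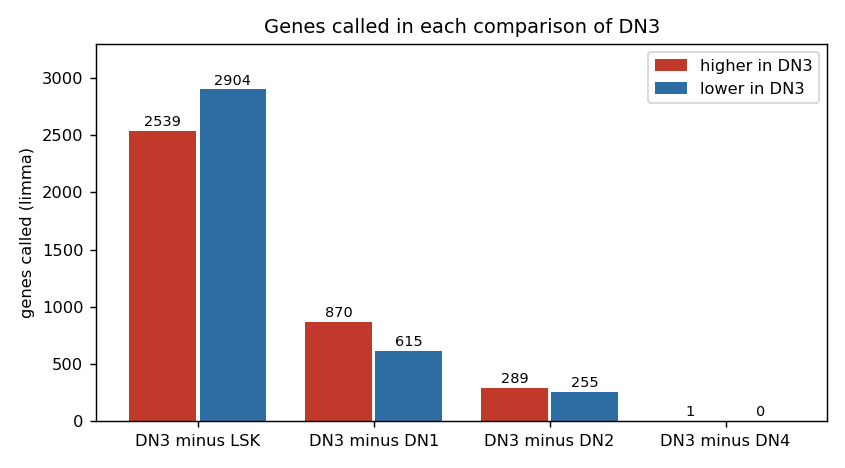
Number of genes called by limma (adjusted p under 0.05, 22180 genes tested) in each comparison of the DN3 fraction, higher in DN3 (red) and lower in DN3 (blue). Calls number 5443 against LSK, 1485 against DN1, 544 against DN2 and 1 against DN4.

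Among the Notch receptors, 3 of 4 were higher in DN3 than in LSK and Notch2 was lower. Of all genes, 11.4% were called higher and 13.1% lower. Notch1 was at 11.001, 11.08 and 10.80 in DN3, against 8.55, 8.53 and 7.66 in LSK, a log2 difference of 2.71 (SE 0.22, adjusted p = 3.69e-06). Notch3, at once a receptor and a target of Notch1, was at 10.03, 9.88 and 9.91 in DN3, against 5.34, 5.88 and 5.95 in LSK, or 18.6-fold higher (log2 4.22, SE 0.17, adjusted p = 1.61e-08). No DN3 array overlapped an LSK array for either gene, and the LSK signal of Notch3 lay close to background. Notch4, a receptor known mainly from blood vessels, was at 8.09, 7.91 and 7.88 in DN3, against 6.53, 6.75 and 6.66 in LSK (log2 1.31, adjusted p = 1.81e-05). Notch2, a receptor used by several blood lineages, had the opposite direction, with 8.42, 8.40 and 8.26 in DN3 against 10.41, 10.46 and 10.22 in LSK (log2 -2.001, adjusted p = 5.82e-07).

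The receptors also differed among the lymphoma fractions. Notch1 was higher in DN3 than in DN1, where arrays read 9.15, 9.81 and 8.86 (log2 1.69, adjusted p = 0.000182, in a comparison that called 6.7% of genes). Against DN2, at 10.52, 10.44 and 9.91, the Notch1 difference of 0.67 was not called (adjusted p = 0.293), and with the replicate number as a block it was (adjusted p = 0.0337). Notch3 was higher in DN3 than in DN1 (7.32, 7.99 and 7.46) by log2 2.35 (adjusted p = 7.69e-07), and the 0.67 above DN2 was not called (adjusted p = 0.152). Notch4 was the receptor called against both, by 1.10 over DN1 (adjusted p = 2.52e-05) and 1.07 over DN2 (adjusted p = 7.52e-05, with 2.45% of genes called). It stood at 6.86 in DN1 and 6.89 in DN2, not called against the 6.65 of LSK (adjusted p = 0.337 and 0.177). Notch2 in DN3 was not called against DN1 (0.47, adjusted p = 0.196) or DN2 (0.44, adjusted p = 0.479).

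Of 13 measured Notch targets (14 listed, with Tcf7 not used here), 8 were higher in DN3 than in LSK and 2 were lower, with a median log2 difference of 2.04 beside 0.049 over all genes. Notch3, Ptcra and the sort marker Il2ra are among the 8. Over all genes, 11.4% were called higher and 13.1% lower. Dtx1, a ubiquitin ligase that acts in Notch signalling, was at 10.43, 10.14 and 10.00 in DN3, against 5.995, 5.94 and 6.45 in LSK (log2 4.06, SE 0.17, adjusted p = 2.44e-08). Its other probe set gave 2.90. Heyl, a transcriptional repressor, was at 9.09, 9.40 and 9.08 in DN3, against 5.64, 5.57 and 5.34 in LSK (log2 3.67, SE 0.14, adjusted p = 1.55e-08). Both genes lay far above the LSK arrays on every DN3 array, and the LSK signal of Heyl was at the background range.

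Nrarp, a feedback inhibitor that binds the Notch complex, was at 8.43, 8.71 and 8.10 in DN3, against 6.49, 6.48 and 6.15 in LSK (log2 2.04, adjusted p = 5.45e-06). Trib2, a pseudokinase that Notch1 induces in leukaemia, was at 8.87, 9.49 and 9.16 in DN3, against 6.85, 7.03 and 6.47 in LSK (log2 2.39, adjusted p = 3.03e-06). Hes1, the classical Notch target repressor, rose less: DN3 arrays read 7.14, 7.47 and 6.94 and LSK arrays 6.42, 6.55 and 6.78 (log2 0.60, adjusted p = 0.0191). That call was lost without DN3 array 1 or 2 or without LSK array 1 or 2 (adjusted p = 0.0546 to 0.0756). Hes5, Hey1 and Hey2, related repressors, were not called and lay near background, with DN3 minus LSK of 0.01, -0.52 and 0.34 (adjusted p = 0.985, 0.0758 and 0.142).

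Myc, the growth regulator that Notch1 induces in T cell leukaemia, was lower in DN3 (10.25, 10.54 and 9.95, against 11.27, 11.30 and 11.09 in LSK, log2 -0.97, adjusted p = 0.000928). Igf1r, a growth factor receptor that Notch raises in T cell leukaemia, was also lower, at 6.07, 5.77 and 5.80 in DN3, against 7.75, 8.22 and 7.78 in LSK (log2 -2.04, adjusted p = 2.77e-06). These were the targets that fell, and neither gene's groups overlapped.

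**Figure D2:**
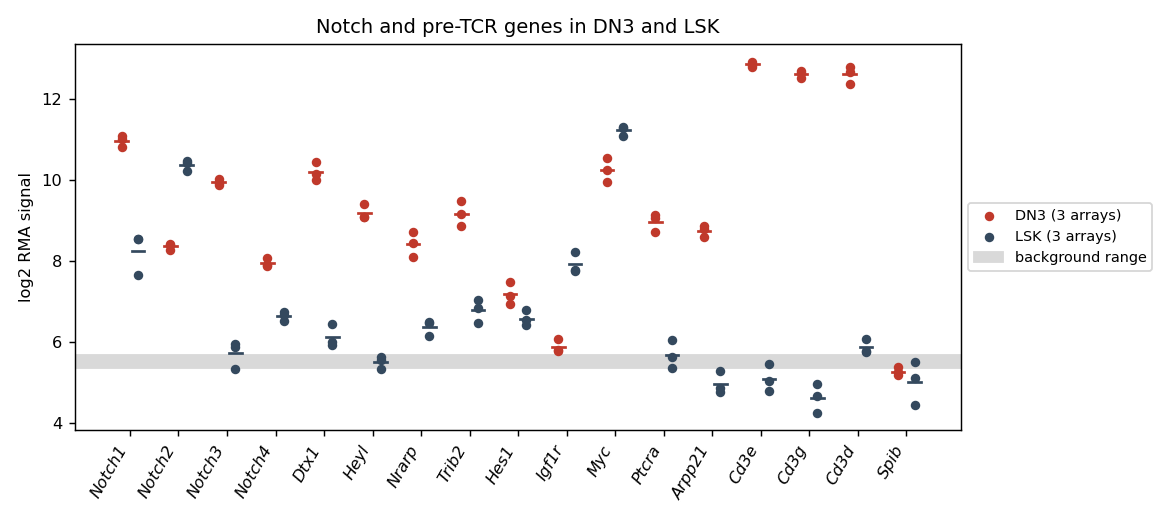
Log2 RMA signal (vertical axis) of Notch receptors, Notch targets and pre-TCR genes (horizontal axis) on the 3 DN3 arrays (red) and the 3 LSK arrays (dark blue), with short lines for group means and a grey band for background (5.36 to 5.68). Notch3, Dtx1, Heyl, Ptcra and the CD3 chains lie well above LSK in DN3, Notch2, Igf1r and Myc lie below it, and levels are not comparable between genes.

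Against DN1, 7 of the 13 targets were higher in DN3, among them the sort marker Il2ra, and Igf1r was lower. That comparison called 3.92% of all genes higher and 2.77% lower. Against DN2, where these shares were 1.3% and 1.15%, 5 targets were higher and Igf1r was lower. The 5 are Heyl, Dtx1, Nrarp, Ptcra and Trib2. Dtx1 was at 7.04, 7.18 and 7.42 in DN1 and at 8.71, 8.87 and 8.59 in DN2, below every DN3 array (log2 2.98 over DN1, adjusted p = 1.25e-09, and 1.46 over DN2, adjusted p = 1.51e-05). Nrarp was at 5.68, 6.43 and 5.47 in DN1 and at 6.89, 6.68 and 6.31 in DN2 (log2 2.55 over DN1, adjusted p = 1.25e-06, and 1.79 over DN2, adjusted p = 0.000151). In DN1 and DN2 Nrarp was not called against LSK (log2 -0.51 and 0.25, adjusted p = 0.158 and 0.315), in comparisons that called 19.7% and 25.4% of genes. Heyl rose by 2.17 over DN1 (adjusted p = 1.4e-06) and 1.45 over DN2 (adjusted p = 0.000277). Trib2 did not follow the stage order: its mean stood at 8.36 in DN1, dropped to 7.94 in DN2, and stood at 9.17 in DN3 and 9.24 in DN4. Igf1r was lower by 1.04 than in DN1 (log2 -1.04, adjusted p = 7.72e-05) and by 0.87 than in DN2 (log2 -0.87, adjusted p = 0.000998).

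The promoters of the 4 Notch and pre-TCR genes with the widest gap between DN3 and DN1, the sort marker Il2ra left out, show what sequence lies at their starts. Each is 300 bases of RefSeq (GRCm38.p6), 250 before to 50 after the gene start, on the gene's own strand. Capitals mark the RBPJ core TGGGAA and the E-box CANNTG, the motif of E proteins such as Tcf3 and Tcf12, searched on both strands. Ptcra lies at chr17:46763663-46763962 (minus strand), Dtx1 at chr5:120711620-120711919 (minus), Nrarp at chr2:25180508-25180807 (plus) and Notch3 at chr17:32166841-32167140 (minus).
Ptcra: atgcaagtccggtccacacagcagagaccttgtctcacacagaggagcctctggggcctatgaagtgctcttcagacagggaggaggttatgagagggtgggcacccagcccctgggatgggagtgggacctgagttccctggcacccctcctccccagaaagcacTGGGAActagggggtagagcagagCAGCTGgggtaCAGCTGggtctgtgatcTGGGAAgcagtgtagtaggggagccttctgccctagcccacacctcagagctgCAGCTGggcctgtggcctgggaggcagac
Dtx1: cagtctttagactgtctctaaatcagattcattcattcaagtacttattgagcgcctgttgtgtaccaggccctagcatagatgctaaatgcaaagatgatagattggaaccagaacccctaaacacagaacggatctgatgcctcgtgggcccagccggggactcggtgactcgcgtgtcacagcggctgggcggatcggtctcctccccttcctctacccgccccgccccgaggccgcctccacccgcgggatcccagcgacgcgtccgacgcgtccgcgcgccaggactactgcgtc
Nrarp: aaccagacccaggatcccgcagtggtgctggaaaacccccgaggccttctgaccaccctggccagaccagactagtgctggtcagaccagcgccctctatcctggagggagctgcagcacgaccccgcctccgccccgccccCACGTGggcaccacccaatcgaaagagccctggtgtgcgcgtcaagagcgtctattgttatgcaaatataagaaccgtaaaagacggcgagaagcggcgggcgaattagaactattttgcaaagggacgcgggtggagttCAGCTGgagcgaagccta
Notch3: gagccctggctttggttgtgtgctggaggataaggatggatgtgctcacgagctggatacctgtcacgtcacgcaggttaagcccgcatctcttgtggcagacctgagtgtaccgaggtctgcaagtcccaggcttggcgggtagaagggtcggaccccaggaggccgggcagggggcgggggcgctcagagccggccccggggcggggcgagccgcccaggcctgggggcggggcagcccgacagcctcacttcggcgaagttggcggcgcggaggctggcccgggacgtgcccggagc
Ptcra holds 2 RBPJ cores and 3 E-boxes, Nrarp 2 E-boxes, and the Dtx1 and Notch3 windows none of either, with no overlap between motifs. Among all 32851 promoters of that table, 25.6% hold TGGGAA and 72.3% hold CANNTG. Of 19 promoters listed for 11 Notch and pre-TCR genes, 3 hold TGGGAA and 15 hold CANNTG. A match is a stretch of letters and not a measured binding site.

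Ligands and the processing machinery did not rise. Of 5 Notch ligands, Jag1 was called, lower in DN3 at 4.39, 4.39 and 4.34, against 5.27, 5.51 and 5.82 in LSK, with every DN3 array below background. Dll1, Dll3, Dll4 and Jag2 were not called (log2 0.22, 0.35, -0.10 and -0.33; adjusted p = 0.269, 0.0866, 0.648 and 0.177), and the first 3 lay at or under background in DN3. Of 20 measured machinery genes, 7 fell and 0 rose, where 13.1% of all genes fell and 11.4% rose. Lfng and Mfng, the Fringe enzymes that glycosylate Notch, had the smallest p. Lfng was at 6.99, 7.18 and 7.01 in DN3, against 8.94, 9.02 and 9.20 in LSK (log2 -1.996, adjusted p = 7.08e-07), and Mfng was lower by log2 -1.38 (adjusted p = 9.11e-06). Adam10 and Adam17, the proteases that cut bound Notch, fell by 0.95 and 1.04, and Spen, a corepressor that binds RBPJ, fell by 0.93. Lfng was also the 1 machinery gene called against DN1 (log2 -1.31, adjusted p = 0.000513), where 6.7% of all genes were. Against DN2 none was called, beside 2.45% of all genes.

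Pre-TCR genes rose in 5 of 6 measured cases (7 listed), with a median log2 difference from LSK of 5.02 where the 2 members below background in LSK were set at their bound, beside 0.049 over all genes. Of all genes, 11.4% rose. Ptcra, the pre-TCR alpha chain, was at 9.06, 8.72 and 9.14 in DN3, against 5.37, 6.04 and 5.64 in LSK, or 9.79-fold higher (log2 3.29, SE 0.18, adjusted p = 1.96e-07). Its arrays read 5.76, 5.94 and 5.83 in DN1 and 6.98, 7.02 and 7.11 in DN2. DN3 exceeded DN1 by log2 3.13 (SE 0.16, adjusted p = 1.09e-09) and DN2 by 1.93 (adjusted p = 9.39e-07). Ptcra in DN1 was not called against LSK (log2 0.16, adjusted p = 0.608), DN2 was above LSK by 1.36 (adjusted p = 6.71e-05), and DN3 minus DN4 was -0.05 (95% interval -0.39 to 0.30).

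The CD3 chains, which carry the signal of the receptor into the cell, differed far more between lymphoma and LSK than among the lymphoma fractions. Cd3e was at 12.80, 12.92 and 12.83 in DN3, against 5.46, 4.79 and 5.03 in LSK (log2 7.75, SE 0.17, adjusted p = 6.07e-10). Cd3g was at 12.63, 12.50 and 12.69 in DN3, against 4.67, 4.97 and 4.26 in LSK, all below background, so that the difference is at least 143-fold (adjusted p = 6.07e-10). Cd3d rose by log2 6.74 (adjusted p = 6.07e-10). These chains were also higher in DN3 than in DN1, by 0.67 for Cd3e (adjusted p = 0.00503), 0.62 for Cd3g (adjusted p = 0.0106) and 0.68 for Cd3d (adjusted p = 0.0423). The Cd3g call was lost without DN3 array 3 (adjusted p = 0.0513), and the Cd3d call without DN3 array 1 or 3 or DN1 array 2 or 3 (adjusted p = 0.135 to 0.182). None of the 3 chains was called against DN2.

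Arpp21, a thymocyte RNA-binding phosphoprotein, was at 8.85, 8.58 and 8.78 in DN3, against 5.28, 4.86 and 4.78 in LSK, all below background (at least 9.79-fold, adjusted p = 2.4e-08). Spib, an Ets factor of early lymphoid cells, stayed within the background range, at 5.26, 5.38 and 5.18 in DN3 against 5.52, 5.13 and 4.44 in LSK (adjusted p = 0.503). It was called above DN1 (0.76, adjusted p = 0.00174) and DN2 (0.77, adjusted p = 0.00349), where its arrays read 4.38 to 4.71, at levels that the arrays do not tell from background.

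**Figure D3:**
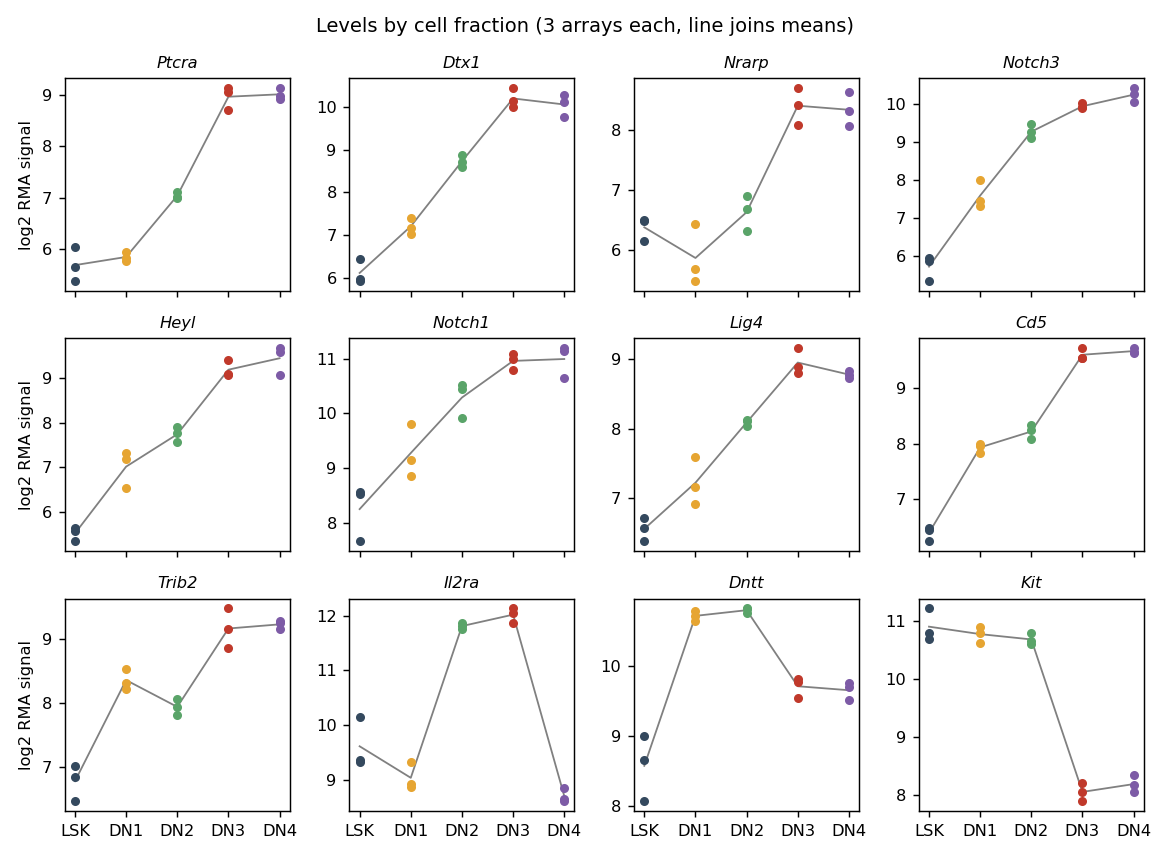
Log2 RMA signal (vertical axes, a scale for each gene) of 12 genes on the 3 arrays of LSK, DN1, DN2, DN3 and DN4 (horizontal axis), with lines through the means. Ptcra, Dtx1, Nrarp, Heyl and Lig4 climb through DN2 to DN3, Il2ra falls again in DN4, and Dntt is lower in DN3 than in DN1 and DN2.

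Recombination genes rose in 6 of 10 measured cases (12 listed, with Rag1 and Dclre1c not used here) and fell in 0 against LSK. Beside this, 11.4% of all genes rose and 13.1% fell. Lig4, the ligase that joins broken receptor gene ends, was at 8.90, 9.16 and 8.80 in DN3, against 6.57, 6.71 and 6.37 in LSK (log2 2.40, adjusted p = 3.87e-07). It exceeded DN1 by 1.74 (adjusted p = 2.86e-06) and DN2 by 0.87 (adjusted p = 0.00776), and the call against DN2 was lost without DN3 array 2 (adjusted p = 0.0518). Xrcc5 and Xrcc6, the Ku proteins that hold broken ends, rose by 1.94 and 2.12 over LSK (adjusted p = 5.15e-07 and 5.22e-06) and were not called against DN1 or DN2 (adjusted p = 0.243 to 0.767). The Lig4 arrays of DN3 lay above those of LSK, DN1 and DN2 without overlap.

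Rag2, a subunit of the recombinase, was called higher than LSK (4.85, 5.57 and 4.78 in DN3, against 4.31, 3.65 and 4.09 in LSK, adjusted p = 0.00532), DN1 (1.26, adjusted p = 0.00204) and DN2 (1.40, adjusted p = 0.0018), but on levels mostly under background. Dntt, the polymerase that adds untemplated nucleotides at joints, was at 9.78, 9.81 and 9.55 in DN3, against 9.003, 8.65 and 8.06 in LSK (log2 1.14, adjusted p = 0.00192). It ran the other way within the lymphoma, at 10.79, 10.65 and 10.73 in DN1 and 10.82, 10.76 and 10.84 in DN2, so that DN3 was lower by log2 -1.01 than DN1 (adjusted p = 0.00013) and by -1.09 than DN2 (adjusted p = 0.000125). DN3 thus lay between LSK and the earlier fractions for Dntt. Hmgb2, a DNA-bending cofactor, rose by 0.59 (adjusted p = 0.0329), a call lost without DN3 array 1 or 2 or LSK array 2 or 3 (adjusted p = 0.101 to 0.115). Xrcc4, Prkdc, Nhej1 and Hmgb1, of the same repair pathway or cofactors, were not called (log2 -0.11, 0.30, -0.14 and -0.19; adjusted p = 0.67, 0.227, 0.556 and 0.549).

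Receptor signalling genes rose in 10 of 15 measured cases and fell in 1, which was Syk (named after its value was seen), a kinase of the pre-TCR and the B cell receptor. Beside this, 11.4% of all genes rose and 13.1% fell. Themis, which tunes signals in thymocyte selection, was at 8.85, 8.83 and 8.89 in DN3, against 4.14, 4.11 and 4.57 in LSK, all below background (at least 10.6-fold, adjusted p = 4.27e-09). Zap70, the kinase that binds phosphorylated CD3 chains, was at 10.23, 10.51 and 10.20 in DN3, against 6.26, 5.77 and 5.96 in LSK (log2 4.32, adjusted p = 9.69e-09). The adaptors Sh2d2a and Lat rose by 4.09 and 2.48, and the phosphatase Ptpn22 by 2.97 (adjusted p = 2.8e-08, 1.76e-07 and 8.42e-07). Within the lymphoma the list split, with 2 members higher and 3 lower than in DN1, and 1 higher and 1 lower than in DN2. Of all genes, 3.92% were higher and 2.77% lower than in DN1, and 1.3% and 1.15% than in DN2.

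Genes of beta-selection and the passage after it moved in both directions against LSK, 8 of 21 measured higher, among them the sort markers Cd4, Cd8a and Cd8b1, and 11 lower. The shares over all genes were 11.4% higher and 13.1% lower. Cd5, a receptor that thymocytes raise with the strength of receptor signals, was at 9.73, 9.55 and 9.55 in DN3, against 6.45, 6.49 and 6.25 in LSK (log2 3.21, adjusted p = 2e-08). It exceeded DN1 (7.97, 8.01 and 7.83) by 1.67 (adjusted p = 8.64e-08) and DN2 (8.09, 8.24 and 8.34) by 1.38 (adjusted p = 2.02e-06). Cd2, an adhesion receptor of T cells, rose by 3.21 over LSK (adjusted p = 9.89e-08). Bcl2l1, a survival gene, fell by 1.34 (adjusted p = 1.54e-05).

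Ccnd2, a D-type cyclin of both progenitors and thymocytes, was at 8.55, 8.69 and 8.49 in DN3, against 10.86, 11.08 and 10.95 in LSK (log2 -2.38, adjusted p = 1.42e-07). DN1 arrays read 5.74, 5.89 and 6.16 and DN2 arrays 5.62, 5.90 and 5.78, so that DN3 was above DN1 by 2.65 (adjusted p = 3.19e-09) and above DN2 by 2.81 (adjusted p = 4.93e-09). DN3 thus stood between the LSK level and the low level of the earlier fractions without overlap with either.

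T commitment factors rose in 13 of 15 measured cases against LSK and fell in 1, Runx3 (named after its value was seen). The shares over all genes were 11.4% higher and 13.1% lower. Bcl11b, the factor that seals T commitment, was at 9.40, 9.93 and 9.53 in DN3, against 5.08, 4.88 and 4.59 in LSK, all below background (at least 18.0-fold, adjusted p = 9.74e-09). Lef1, a partner of TCF1 in thymocytes, was at 11.49, 11.93 and 11.69 in DN3, against 7.90, 8.09 and 6.59 in LSK (log2 4.17, adjusted p = 2.38e-06). Gata3, a master factor of the T lineage, rose by 2.58 (adjusted p = 3.77e-07), while its other probe set gave 0.42. Ikzf3, a lymphoid zinc finger protein, and Ets1 rose by 5.09 and 2.35 (adjusted p = 2.44e-09 and 7.65e-07). Lef1 was also above DN1 (1.16, adjusted p = 7.14e-05). In all, 4 members of the list rose and 1 fell against DN1, beside 3.92% and 2.77% of all genes. Against DN2, 0 were called, where 2.45% of all genes were.

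The progenitor factors that early thymocytes inherit fell in 19 of 20 cases and rose in 1, Id2 (named after its value was seen), an inhibitor of E proteins, at 8.16, 8.08 and 8.36 in DN3 against 6.74, 6.86 and 7.77 in LSK (adjusted p = 0.0059). Over all genes, 13.1% fell and 11.4% rose. Meis1, a homeobox factor of blood stem cells, was at 4.52, 4.28 and 4.44 in DN3, all below background, against 10.12, 10.62 and 10.36 in LSK (at least 27.4-fold lower, adjusted p = 1.13e-09). Cd34 was at 5.10, 5.07 and 5.30 in DN3, against 11.20, 11.03 and 11.08 in LSK (at least 45.7-fold lower, adjusted p = 6.07e-10). Erg was at least 7.79-fold lower, and Bcl11a and Mef2c at least 17.6-fold and 9.29-fold lower. The second probe sets of Bcl11a and Mef2c gave log2 -0.18 and -0.25. In DN3, 13 of the 20 were not above background on any array (beside 44.3% of all genes), against 1 of 20 in LSK. Kit, a sort marker, was the 1 member called against DN2, where 2.45% of all genes were.

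**Figure D4:**
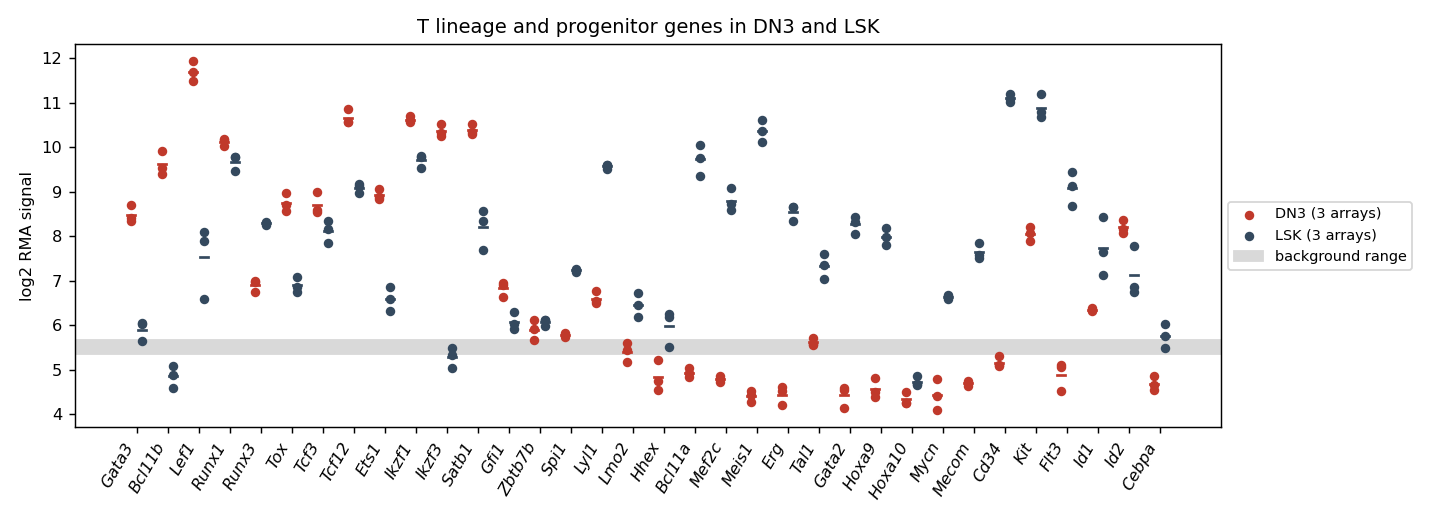
Log2 RMA signal (vertical axis) of T commitment factors (left) and progenitor genes (right; horizontal axis) on the 3 DN3 arrays (red) and the 3 LSK arrays (dark blue), with the background range in grey. Bcl11b, Lef1 and Ikzf3 lie above LSK in DN3, and Meis1, Erg, Bcl11a and Cd34 fall to background in DN3.

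The largest rises over LSK outside the CD3 chains were in a mixed group. Gzma, a protease of killer cell granules, was at 11.73, 11.30 and 11.79 in DN3, against 4.49, 4.04 and 4.62 in LSK (at least 71.3-fold, adjusted p = 1.13e-09). Ifi204, an interferon-inducible DNA sensor, was at 9.87, 10.18 and 9.67 in DN3, against 3.62, 4.30 and 2.94 in LSK (at least 22.0-fold, adjusted p = 3.66e-08), and it was 8.55-fold higher than in DN1. Every LSK array was below background for both genes. Slamf6, a SLAM family receptor, rose by log2 6.07 (4.00 by its other probe set), with 11.81, 11.92 and 11.85 in DN3, against LSK arrays that spread over 6.995, 5.37 and 5.00. Endou, an endoribonuclease, Mpzl2, an adhesion protein, and Smok4a, a sperm motility kinase, were at least 42.7-fold, 24.2-fold and 39.9-fold higher, against LSK signals below background. Smok4a differed between DN3 arrays, with 9.63 on array 2 and 11.44 and 11.23 on the others. Gfra1, a coreceptor for the neurotrophic factor GDNF, rose by 5.56, and its other probe set by 1.27.

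Among the largest falls, Adgrl4, an adhesion receptor, was at 3.32, 3.45 and 4.02 in DN3, against 10.54, 10.66 and 10.78 in LSK (at least 33.6-fold lower, adjusted p = 1.13e-09). Lilrb4a, an inhibitory receptor of myeloid cells, and Rgs18, a regulator of G protein signals in platelets, were at least 39.5-fold and 17.8-fold lower, with DN3 below background on all arrays. Ctla2a and Ctla2b, cysteine protease inhibitors of near-identical sequence whose signals may be shared, fell by 7.01 and 6.79 on the log2 scale. Neurl3, a ubiquitin ligase, and Cd63, a tetraspanin, fell by 6.54 and 6.23, and Car2, a carbonic anhydrase, was at least 18.4-fold lower.

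Cytokine receptor genes split evenly against LSK, 6 of 14 higher, among them the sort markers Il2ra and Il7r, and 6 lower. The shares over all genes were 11.4% higher and 13.1% lower. Il17rb, a receptor for IL-25, was at 10.27, 9.96 and 10.06 in DN3, against 5.31, 5.53 and 5.49 in LSK (log2 4.65, adjusted p = 2.42e-09). Il9r, the IL-9 receptor, was at 8.54, 8.84 and 8.61 in DN3, against 5.42, 6.03 and 5.76 in LSK (log2 2.93, adjusted p = 2.52e-07), and was above DN1 and DN2 by 1.17 and 1.06 (adjusted p = 2.18e-05 and 0.000138). Il4ra, the IL-4 receptor alpha chain, was at 5.68, 6.003 and 6.23 in DN3, against 10.82, 10.89 and 10.86 in LSK (log2 -4.89, adjusted p = 3.29e-09). It fell stepwise, with means of 9.64 in DN1, 8.12 in DN2 and 5.97 in DN3 (log2 -3.67 against DN1, adjusted p = 3.32e-09, and -2.15 against DN2, adjusted p = 5.49e-06). Il6ra fell by 3.17 over LSK (adjusted p = 4.49e-08).

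Genes linked to NPM-ALK and STAT3 rose in 3 of 27 cases and fell in 12, beside 11.4% of all genes called higher and 13.1% called lower. Tnfrsf8, which codes for CD30, the surface antigen of this lymphoma, was at 10.35, 10.50 and 10.11 in DN3, against 5.95, 5.12 and 5.64 in LSK (log2 4.75, adjusted p = 2.51e-08). Pdgfrb, a receptor kinase, was at 12.51, 12.67 and 12.33 in DN3, against 8.34, 7.80 and 7.68 in LSK (log2 4.57, adjusted p = 1.55e-08). Vegfa, a growth factor for blood vessels, was at 5.70, 5.67 and 5.74 in DN3, against 10.01, 10.36 and 10.20 in LSK (log2 -4.48, adjusted p = 2.44e-09), and Cish, a feedback inhibitor of STAT5 signals, fell by 1.79 (5.17 by its other probe set). Within the lymphoma 7 members were lower in DN3 than in DN1, 5 were lower than in DN2 and 0 were higher than in either. Of all genes, 2.77% were lower and 3.92% higher than in DN1, and 1.15% and 1.3% than in DN2.

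Cell cycle genes rose in 13 of 24 measured cases against LSK, by modest amounts, and Ccnd2 fell. Beside this, 11.4% of all genes rose and 13.1% fell. Tyms, which makes thymidylate, was at 10.02, 9.82 and 10.03 in DN3, against 8.90, 8.82 and 8.62 in LSK (log2 1.18, adjusted p = 5.9e-05). Rrm2, a subunit of ribonucleotide reductase, and the cyclins Ccnd1 and Ccne1 rose by 1.13, 1.27 and 0.91. Against DN1, 12 members were higher and 1 was lower, with Tyms up by 0.95 (adjusted p = 0.000399). Against DN2 the count was 1 higher, which was Ccnd2, and 1 lower. Of all genes, 3.92% were higher and 2.77% lower than in DN1, and 1.3% and 1.15% than in DN2.

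MHC class II genes fell against LSK in 6 of 9 measured cases, beside 13.1% of all genes. H2-Ab1, the I-A beta chain, was at 6.30, 6.30 and 6.45 in DN3, against 10.77, 10.16 and 10.56 in LSK (log2 -4.15, adjusted p = 1.55e-08), and it was below DN1 by log2 -2.24 (adjusted p = 7.07e-06) and below DN2 by -1.74 (adjusted p = 0.000254). H2-Oa, part of a peptide-loading inhibitor, moved the other way, at 9.19, 9.53 and 9.30 in DN3, against 6.80, 6.42 and 6.45 in LSK (log2 2.79, adjusted p = 1.5e-07). It exceeded DN1 by 1.07 (adjusted p = 0.000849) and DN2 by 0.89 (adjusted p = 0.00909). H2-Aa and H2-DMb2 were at least 6.31-fold and 3.73-fold lower than LSK, and H2-DMa fell by 2.08.

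Of all genes 44.3% were not above background on any DN3 array, and 11.4% were called higher and 13.1% lower than in LSK. Of 13 granulocyte markers 8 were not above background on any DN3 array, against 2 in LSK, and the mean over the list was 4.77 to 5.08 on the DN3 arrays, against 6.86 to 8.01 on the LSK arrays. Among them 10 fell and 0 rose, led by Elane and Mpo, neutrophil enzymes, at 5.72, 5.97 and 5.64 and at 4.59, 4.97 and 5.20 in DN3. Of 11 B cell markers 3 fell and 8 were not above background in DN3. Jchain, of secreted antibody, was at 4.04, 4.00 and 4.46 in DN3, against 9.06, 7.87 and 6.52 in LSK, a wide spread within LSK. Ebf1 fell by 0.88 (adjusted p = 0.0479), a call lost without DN3 array 1, 2 or 3 or LSK array 1 or 2.

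Of 11 macrophage markers 4 fell and 1 rose, and 8 were not above background in DN3. Over all genes, 13.1% fell and 11.4% rose. The 1 that rose is Cd68, a lysosomal protein, at 8.73, 8.73 and 8.84 in DN3, against 8.09, 8.11 and 8.06 in LSK (log2 0.68, adjusted p = 0.0014, and 0.0714 with all 18 arrays in the fit). Csf1r and Lyz2, also on this list, were below background in DN3. Of 10 dendritic cell markers 5 fell and 0 rose, 4 were not above background in DN3, and Flt3 was at least 11.3-fold lower. Of 7 measured erythroid and megakaryocyte markers 5 fell and 0 rose, 3 were not above background in DN3, and Pf4 was at least 5.87-fold lower. Of 11 NK markers Gzma rose and 4 fell, among them Ccl5 and Nkg7 (log2 -3.57 and -1.58), and 6 were not above background in DN3. Of 12 stroma and thymic epithelium markers Pdgfrb and Col1a2 rose, Epcam fell and 5 were not above background in DN3, all near the shares over all genes. The mean over the list was 6.42 to 6.49 on the DN3 arrays, against 5.93 to 6.02 on the LSK arrays. Col1a2, a collagen chain, was at 6.95, 7.32 and 7.18 in DN3, against 5.82, 5.53 and 5.53 in LSK (log2 1.52, and 0.63 by its other probe set). Foxn1, the defining factor of thymic epithelium, was below background and Col3a1 was at 5.58, 5.61 and 5.66 in DN3. The part of such cells in the results above was not tested.

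To find changes larger in DN3 than in the earlier stages, genes were taken that limma called in the same direction against LSK, DN1 and DN2. There were 334, or 1.51% of all genes, 203 higher (0.915%) and 131 lower (0.591%). The 3 comparisons share the DN3 arrays, so the call rule itself favours genes that stand out there, and the counts carry no test of their own. Both fraction differences were at least 2-fold in 107 of the higher and 62 of the lower genes. The rule fixes that DN3 lies beyond both fractions and does not use the order of DN1 and DN2. The DN2 mean was above that of DN1 in 155 of the 203 higher genes (76.4%, beside 53.6% of all genes) and below it in 106 of the 131 lower ones (80.9%, beside 46.4% of all genes), a description with no test. Among the 203 were Notch4, Heyl, Dtx1, Nrarp, Ptcra, Trib2, Rag2, Lig4, Cd5, Il9r, H2-Oa, Col1a2, Ifi204 and Slamf6, and among the 131 were Igf1r, Il4ra, H2-Ab1, Ctla2b and the sort markers Kit and Cd44. Slamf6 was not called against DN2 with all 18 arrays in the fit (adjusted p = 0.462), and Ctla2b not without DN3 array 3 or DN2 array 3 (adjusted p = 0.0635 to 0.0705).

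Among the higher genes with the widest gap, Susd4, a complement regulator, was at 10.58, 10.33 and 10.19 in DN3, against 6.42, 6.08 and 5.60 in DN1 and 5.86, 6.22 and 5.92 in DN2. LSK arrays read 5.71, 6.04 and 5.64 for Susd4, and neither DN1 nor DN2 was called against LSK (log2 0.24 and 0.20, adjusted p = 0.498 and 0.376). Atp8a2, a lipid flippase known from neurons and the retina, was at 10.25, 9.65 and 10.00 in DN3, against 5.38, 5.46 and 6.22 in DN1 and 5.49, 5.94 and 5.68 in DN2. For both genes the arrays of DN1 and DN2 lay near those of LSK and all 3 DN3 arrays lay far above (DN3 minus LSK 4.57 and 4.40, adjusted p = 5.96e-09 and 1.02e-08).

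A further set of these genes rose in DN3 from low levels. Cpe, a prohormone-processing carboxypeptidase, was at 8.83, 8.39 and 8.35 in DN3, with DN1, DN2 and LSK all below background (at least 7.75-fold over DN1, 8.13-fold over DN2 and 8.42-fold over LSK). Nfib, a transcription factor, was at 8.72, 8.99 and 8.82 in DN3, against 5.58, 5.75 and 6.14 in DN1 (log2 3.02, adjusted p = 1.36e-07). Drd5, a dopamine receptor, was at 9.40, 9.59 and 9.40 in DN3, against 6.39, 5.86 and 6.51 in DN1 (log2 3.21, adjusted p = 1.46e-09), and its other probe set differed by 0.59.

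Fbp1, an enzyme of gluconeogenesis, and Apol11b, of the apolipoprotein L family, climbed by steps. Fbp1 had means of 5.83 in DN1, 7.49 in DN2 and 10.28 in DN3, against LSK signals below background (at least 28.4-fold over LSK). Apol11b had means of 5.96 in DN1, 7.39 in DN2 and 9.89 in DN3 (at least 21.7-fold over LSK). DN2 was above LSK for both (log2 2.60 and 2.71, adjusted p = 2.72e-07 and 2.8e-06).

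Rhobtb3, Pde9a, a cGMP phosphodiesterase, and Prag1, a pseudokinase scaffold, were lower than LSK in DN1 and DN2 and higher than LSK in DN3. Rhobtb3 was at 8.96, 9.37 and 9.03 in DN3, against 7.72, 7.45 and 7.65 in LSK (log2 1.51, adjusted p = 1.77e-05), while all DN1 and DN2 arrays (4.85 to 5.30) were below background. DN3 was at least 11.7-fold above DN1 and 12.3-fold above DN2. Pde9a was at 9.32, 9.54 and 9.32 in DN3, against 6.20, 6.26 and 7.34 in LSK, and Prag1 was at 8.40, 8.67 and 8.20 in DN3, against 7.47, 7.08 and 7.34 in LSK. LSK lay between the earlier fractions and DN3 in each of the 3 genes.

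**Figure D5:**
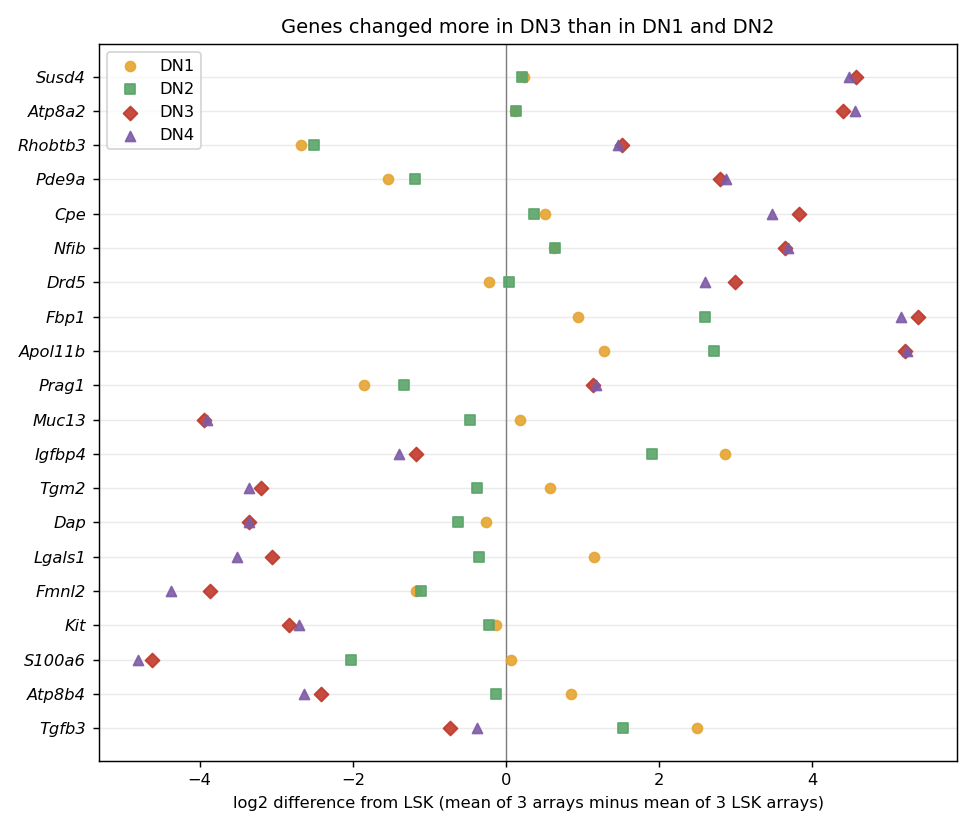
Log2 difference from LSK (horizontal axis, mean of 3 arrays minus mean of 3 LSK arrays) of the 10 higher and the 10 lower genes (vertical axis) with the widest gap between DN3 and both earlier fractions, for DN1 (circles), DN2 (squares), DN3 (diamonds) and DN4 (triangles). DN3 and DN4 lie close together for each gene, and Rhobtb3, Pde9a, Prag1, Igfbp4 and Tgfb3 are on opposite sides of 0 in DN3 and in DN1 and DN2. Tgfb3 signals in DN3 were below background.

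Among the lower genes with the widest gap, Muc13, a membrane mucin, was at 7.13, 6.88 and 6.55 in DN3, against 10.98, 11.03 and 10.95 in DN1 and 10.42, 10.46 and 10.11 in DN2. LSK arrays were at 11.05, 10.82 and 10.55, so that Muc13 lay near or little below LSK in the earlier fractions (log2 0.18 in DN1, adjusted p = 0.488, and -0.47 in DN2, adjusted p = 0.0442) and 15.4-fold lower than LSK in DN3. Tgm2, a transglutaminase, had the same shape, at 6.61, 6.79 and 6.26 in DN3, against 9.83, 9.92 and 9.51 in LSK, and was not called in DN1 or DN2 (adjusted p = 0.0562 and 0.0825). Dap, a death-associated protein, and Fmnl2, a formin, were at least 6.62-fold and 9.04-fold lower in DN3 than in LSK, at signals below background.

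Lgals1, galectin-1, and S100a6, a calcium-binding protein, were high in DN1 and fell by steps. Lgals1 was at 6.32, 6.09 and 6.52 in DN3, against 10.92, 10.20 and 10.45 in DN1 and 9.10, 8.59 and 9.37 in DN2. S100a6 was below background in DN3 (5.13, 4.88 and 5.05), against 10.35, 9.55 and 9.25 in DN1 and 7.45, 7.55 and 7.87 in DN2, or at least 17.5-fold and 4.09-fold lower. Igfbp4, which binds insulin-like growth factors, was at 6.89, 6.75 and 6.57 in DN3, against 8.19, 8.12 and 7.42 in LSK (log2 -1.18, adjusted p = 0.00109), whereas DN1 and DN2 were above LSK by 2.85 and 1.91. Tgfb3, a TGF-beta ligand, and Atp8b4, of the flippase family, were below background in DN3. DN3 was at least 5.46-fold below DN1 for Tgfb3 and 7.36-fold for Atp8b4.

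A smaller set of 68 genes (0.307%) differed from LSK in DN3 but lay nearer to LSK than DN1 and DN2 did, 46 above LSK (0.207%) and 22 below it (0.0992%). Dntt (above LSK) and Ccnd2 (below LSK), with values given earlier, belong to it.

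The comparison with DN4, the next stage, called the fewest genes. The 1 gene called of 22180 (0.00451%) was Il2ra, the gene of the sort marker CD25, at 12.14, 11.87 and 12.05 in DN3 against 8.66, 8.61 and 8.85 in DN4 (log2 3.31, adjusted p = 1.48e-09). With the replicate number as a block and only these 2 fractions in the fit there were 4 genes, Il2ra and, named after their values were seen, Ifitm3, Ms4a6b and AF357399, which were higher in DN3 by log2 0.97, 0.94 and 1.08 (adjusted p = 0.0372 each). Without DN3 array 1 there were 2 genes, Il2ra and, also named after its value was seen, Ces2g (log2 1.42, adjusted p = 0.0284). At an unadjusted p under 0.05 there were 659 of 22180 genes, a smaller share than the 0.05 that this threshold passes where no gene differs. In their means, 4 genes differed at least 2-fold. The median 95% interval of a DN3 minus DN4 difference reached 0.351 to either side before any adjustment over genes, and larger differences than that were also not called. Of the 334 genes that went beyond DN1 and DN2, 0 were called between DN3 and DN4, and the widest gap was 0.585 among the higher and 0.967 among the lower genes. Notch1, Notch3, Dtx1 and Nrarp differed between DN3 and DN4 by -0.03 (95% interval -0.55 to 0.48), -0.30 (-0.75 to 0.14), 0.14 (-0.19 to 0.48) and 0.07 (-0.43 to 0.57).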

How the data were processed

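RNA of sorted cells was measured on Affymetrix arrays after amplification with the WT Pico kit. The authors deposited 1 log2 value per probe set and array, made with oligo and RMA per the submitters' processing notes; versions and genome build are not given in the sources used here. The table holds 41345 probe sets and 0 missing values. Of these, 23521 carry 1 gene symbol in the platform annotation, 1814 several and 16010 none, and the 17824 without a single symbol were left out. The probe set brightest over 18 arrays stood for a gene, which left 22180 genes, 1082 of them with several probe sets.

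DN3 and LSK were tested on their 6 arrays, and DN3 against DN1, DN2 and DN4 in 1 model of the 15 lymphoma arrays, with limma 3.58.1 (lmFit, eBayes, two-sided) in R 4.3.3. These 15 include 3 CLP arrays, which were not compared but entered the estimate of spread. CLP arrays correlated with each other at r of 0.968 to 0.975, against 0.987 to 0.992 in DN3. P-values were adjusted by Benjamini-Hochberg over all genes, and a gene was called at an adjusted p under 0.05. SE is the limma standard error of a log2 difference. Where all arrays of the dimmer group were below background, the brighter group's mean was set against the higher of signal and background on each array, giving "at least N-fold". The code was tested on simulated data.

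Same-numbered deviations from the group means correlated at 0.116, 0.208 and 0.235 between DN3 and DN1. For DN2 the correlations were 0.139, 0.259 and 0.161, and for DN4 0.11, 0.108 and 0.273. DN3 array 2 correlated better with DN4 array 1 (0.166) than with DN4 array 2. The numbers were taken as a possible pairing of these fractions and used as a block in alternative fits, while the main fits had no block. For LSK the same-number correlations were 0.004, -0.066 and 0.124, which gives no pairing. Lists, members and comparisons were chosen with earlier results of these data known. Named genes are the 10 largest rises and falls without overlap, the 10 widest gaps beyond DN1 and DN2 in each direction, all members of the ligand, receptor, target, pre-TCR and recombination lists, and up to 5 members of each other list by lowest p. The ranking by size skipped predicted or clone-named genes, small RNAs, chemosensory receptors, Y-linked genes, Xist and antigen receptor segments. Xist, Eif2s3y, Cd4, Cd8a, Syk, Runx3 and Id2 were named after their values were seen.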

Additional observations from a re-analysis of the deposited data

Results flagged for a closer look

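The change against LSK differed between DN3 and another fraction in 1485 genes for DN1, 544 for DN2 and 1 for DN4, each by the limma test of DN3 against that fraction. Among the named genes, some were called in opposite directions against LSK. Rhobtb3 was higher than LSK in DN3 and lower than LSK in DN1 and DN2, where it was below background, so that DN3 minus DN1 was at least 3.55 and DN3 minus DN2 at least 3.62 on the log2 scale. Pde9a did the same (at least 3.82, and 3.98), as did Prag1 (2.98 and 2.46). Igfbp4 was lower than LSK in DN3 and higher in DN1 and DN2 (-4.03 and -3.09), and Tgfb3 likewise, with DN3 below background and bounds of -2.45 and -1.49 or further from 0. The Tgfb3 fall from LSK was log2 -0.79 to -0.63 across settings, at DN3 signals that the arrays do not tell from background. Lgals1 and Atp8b4 were lower than LSK in DN3 and higher than LSK in DN1. DN3 minus DN1 was -4.21 for Lgals1 and, with DN3 below background, -2.88 or further from 0 for Atp8b4.

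Probe sets without a single gene symbol, which no comparison above used, also held differences: 936 of 17824 (5.25%) were called between DN3 and LSK, 537 higher and 399 lower.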

How the results depend on the processing

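Counts of called genes were recomputed for each comparison and for the genes beyond DN1 and DN2. Counts of called members against LSK were recomputed for the Notch target, pre-TCR, recombination, beta-selection, receptor signalling, T commitment and progenitor lists. Other list counts, those against DN1 or DN2 and the genes nearer to LSK were not recomputed. Settings were the replicate number as a block, a filter on low values, quantile normalization and the mean of a gene's probe sets. Further settings were a robust trended prior, all 18 arrays fitted together, and each array left out in turn. Across settings, 11 to 14 T commitment factors and 9 to 11 Notch targets were called. Leaving out 1 array gave 4154 to 5388 genes between DN3 and LSK, 1057 to 1282 against DN1, 373 to 448 against DN2 and 229 to 333 beyond both. Against DN4 it gave 1 to 2 genes, with 2 without DN3 replicate 1. The replicate block gave 5315 genes for LSK, 1697 for DN1, 614 for DN2 and 1 for DN4. With only the 2 compared fractions in the fit and no block, there were 1487 genes against DN1, 804 against DN2 and 1 against DN4. Genes beyond both then numbered 431 in place of 334, a count chosen after seeing the data. Adding the block to these fits, also chosen after seeing the data, gave 1881 genes against DN1, 987 against DN2 and 4 against DN4. The cause of these shifts was not tested. No gene call that was followed changed direction. Of 212 single-gene calls followed across settings, 12 were lost under at least 1 alternative, among them Hes1, Hmgb2, Ebf1, Batf3 and Epor against LSK. LSK numbers are not paired with DN3, and there the block ended the Batf3 and Ebf1 calls and added Hey1 and Igll1. Among the fractions it added Notch1 (DN2) and Smok4a (DN1) and changed no other fraction call that was followed. Fraction calls of genes named only from the other lists, such as Cd5, Il4ra, Lfng and Ccnd2, were not followed across settings. With 3 arrays a group, their number limits precision, and signals at background give only bounds.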
